A study of Homo sapiens with 9 samples.

Results

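Cadherins are calcium-dependent adhesion receptors, and 10 of their genes were followed by symbol through every library, namely *CDH1*, *CDH2*, *CDH3*, *CDH4*, *CDH6*, *CDH8*, *CDH10*, *CDH11*, *CDH12* and *CDH13*. They were found among the 60708 genes of the count files by symbol. Finding them used no measured value, but the 10 were chosen with earlier results of these data known. The libraries were labelled as made from MDA-MB-231, an established human triple-negative breast cancer line of mesenchymal appearance, grown untreated in DMEM with fetal bovine serum. There were 3 libraries of unedited cells (WT) and 3 each of CS16 and CS19, which together gave 6 libraries labelled *SNAI1*-KO. CS16 and CS19 were expanded from single cells after transfection with Cas9, a pool of guide plasmids against *SNAI1* and a repair template plasmid, followed by puromycin selection. Each clone therefore stands for 1 founder cell, and no control clone that went through the same selection was analysed here. SNAI1 is a zinc finger repressor that binds E-boxes in gene promoters, and the study compared transcripts of unedited cells with those of clones in which *SNAI1* had been targeted.

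Type I cadherins join neighbouring cells at adherens junctions and prefer partners of their own kind. E-cadherin (*CDH1*) holds epithelia together, and its replacement by N-cadherin (*CDH2*) is the classical cadherin switch of epithelial to mesenchymal transition. Type II cadherins such as *CDH11* are found mostly in mesenchyme and in the nervous system. Inside the cell, β-catenin, p120-catenin and α-catenin connect the cadherin tail to actin, and SNAI1, ZEB and TWIST factors are known repressors of *CDH1*.

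The targeted gene and the markers of the line were read before the cadherins. *SNAI1* was at 0.789, 2.17 and 1.08 CPM (read pairs per library scaled to a common total with TMM factors) in WT-1 to WT-3. It was at 1.27, 1.91 and 1.95 CPM in CS16 and at 2.59, 4.08 and 3.08 CPM in CS19. *SNAI1* was thus not lower in the libraries labelled *SNAI1*-KO, with a log2 fold change of 0.89 ± 0.42 (SE) and an adjusted p of 0.084 in the quasi-likelihood test of edgeR, the test used throughout, adjusted after Benjamini and Hochberg over all genes tested. Without WT-2, its highest WT library, or without CS16-1, the lowest of the 6, the difference was 1.40 or 1.03 and passed in the same test (adjusted p = 0.015 and 0.045). The counts are per gene, so a lost piece of an exon would not show in them.

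Genes with a known state in MDA-MB-231 were read next in the 6 *SNAI1*-KO libraries. They were chosen with earlier results of these data known, so their counts beside those of all genes are not an independent test. A call required an adjusted p under 0.05 and an absolute log2 fold change of 2 or more. Over all 19631 genes tested, 14.3% were called lower in these libraries and 32.6% passed the adjusted p as lower. Of 10 genes known to be high in MDA-MB-231, 9 were called lower in these libraries and all 10 passed the adjusted p as lower. These were the hyaluronan receptor *CD44*, the receptor kinases *EGFR* and *AXL*, the caveolins *CAV1* and *CAV2*, *ANXA1*, the membrane linker *MSN*, *S100A4*, the galectin *LGALS1* and, lower without being called, vimentin (*VIM*). *CD44* had 37760 counts over the WT libraries and 2 over the 6 others. *CDKN2A*, *CDKN2B* and *MTAP*, 9p21 genes that MDA-MB-231 is known to have lost, had 0 counts in each WT library, and their summed level was 164 to 182 CPM in every CS16 and CS19 library. For the clones, the paper reports lower *SNAI1* mRNA at every exon by RT-qPCR and no detectable SNAI1 protein. It also reports deletions within *SNAI1* in the aligned reads, and lower *CD44* and *EGFR* mRNA by RT-qPCR. Whether the libraries labelled *SNAI1*-KO and the WT libraries come from one line was not tested. Every difference below sets the libraries labelled *SNAI1*-KO against those labelled WT.

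Between 19527195 and 28627777 read pairs were counted per library, and 3 counts, the limit below which a gene is not told from 0 here, corresponded to 0.0982 to 0.171 CPM. WT-2 stood apart from the other WT libraries. Its log2(CPM + 1) values correlated at 0.952 with WT-1 and 0.948 with WT-3, whereas WT-1 and WT-3 correlated at 0.995 (Pearson, across genes, which are not independent). For the cadherins and the genes named with a fold change, values without WT-2 are given where they moved by more than 1.5 times or changed a call.

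The cadherins on which the results turned were *CDH11* and *CDH4*, the leading ones in WT, and *CDH2* and *CDH12*, the leading ones in CS16 and CS19. RefSeq promoters on GRCh38.p14 were matched for 5 of the 10 genes, *CDH2*, *CDH4*, *CDH8*, *CDH10* and *CDH12*, and not for *CDH1*, *CDH3*, *CDH6*, *CDH11* and *CDH13*. The 250 bases before the first listed start are shown for 3 of them, since *CDH2* and *CDH12* rose together and *CDH4* fell. They lie at chr18:28177131-28177380 (minus strand), chr5:22853345-22853594 (minus strand) and chr20:61499171-61499420 (plus strand), respectively. Capitals mark CAGGTG or its reverse complement CACCTG, the E-box that SNAI1 is known to bind, searched on both strands.

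CDH2: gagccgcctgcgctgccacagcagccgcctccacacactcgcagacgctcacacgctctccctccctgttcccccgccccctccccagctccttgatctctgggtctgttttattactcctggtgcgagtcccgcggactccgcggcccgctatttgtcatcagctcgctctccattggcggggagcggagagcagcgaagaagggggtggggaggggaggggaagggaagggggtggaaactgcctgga

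CDH12: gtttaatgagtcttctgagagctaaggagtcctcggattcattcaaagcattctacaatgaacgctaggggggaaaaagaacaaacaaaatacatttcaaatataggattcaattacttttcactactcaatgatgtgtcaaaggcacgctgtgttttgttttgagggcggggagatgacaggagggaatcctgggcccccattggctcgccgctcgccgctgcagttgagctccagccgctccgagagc

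CDH4: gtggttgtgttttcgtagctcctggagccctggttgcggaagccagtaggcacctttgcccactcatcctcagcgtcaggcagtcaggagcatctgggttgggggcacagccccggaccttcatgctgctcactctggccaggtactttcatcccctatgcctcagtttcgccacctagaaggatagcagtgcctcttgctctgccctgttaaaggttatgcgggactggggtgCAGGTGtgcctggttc

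The first listed *CDH4* start held 1 such E-box, whose first base is at position -16 from the start, and its other listed start held 0. No E-box of these letters was found before any listed start of *CDH2*, *CDH8*, *CDH10* or *CDH12*. Among all 35116 RefSeq promoters of the same length, 17.5% held at least 1 and 2.53% held 2 or more. The printed *CDH2* and *CDH4* stretches lie inside the genes as annotated in the count files, downstream of their outermost starts. The *CDH2* stretch had 66.0% G and C with 17 CG pairs, and the *CDH12* stretch 48.0% with 10.

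In the 6 libraries labelled *SNAI1*-KO, *CDH2*, *CDH10* and *CDH12* were called higher and *CDH4* and *CDH11* lower than in WT. The test took the 6 libraries of CS16 and CS19 as replicates of a single group, with no term for the clone. A call required an adjusted p under 0.05 and an absolute log2 fold change of 2 or more. Of the 10 cadherins, 7 had enough counts to be tested and 5 were called, whereas 26.9% of all 19631 genes tested were called (12.6% higher and 14.3% lower). *CDH1* passed the adjusted p without reaching the fold change, and *CDH3* did neither. At the adjusted p alone, 6 of the 7 passed, beside 63.7% of all genes. The median log2 fold change of the 7 was 1.38, that of *CDH1* itself, beside -0.0040 over all genes. A gene tested had to reach a minimum count in one group or the other, so the 7 are not a sample of all 10. The 10 were chosen with earlier results of these data known, so their share called is not an independent test. In bulk RNA, fewer cells that make a transcript and less of it per cell cannot be told apart.

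**Figure D1:**
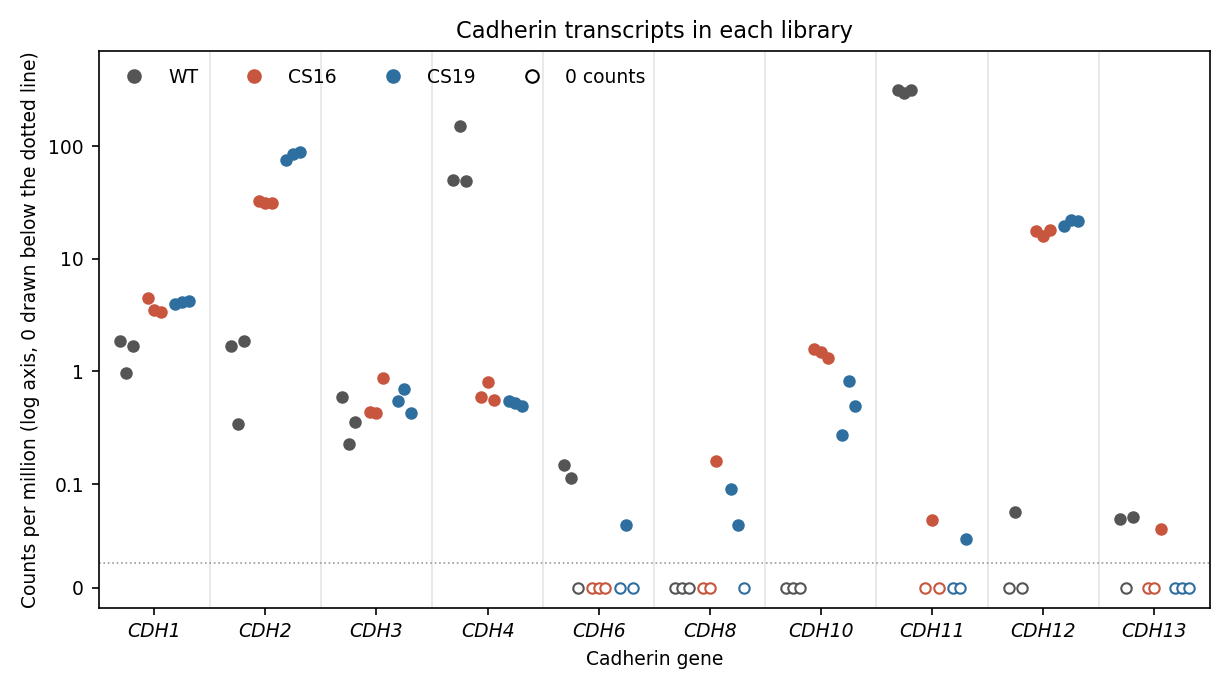
CPM (TMM-scaled, log axis) of the 10 cadherins in each of the 9 libraries, with WT in grey, CS16 in red, CS19 in blue, and open circles for 0 counts. *CDH4* and *CDH11* sat between 49.0 and 316 CPM in every WT library and below 1 CPM in all others, and *CDH2* and *CDH12* were higher in CS16 and CS19 than in WT.

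Among the type I cadherins, E-cadherin *CDH1* (ENSG00000039068.20, chr16:68737292-68835537 on the plus strand of GRCh38) was low everywhere. It was at 1.87, 0.970 and 1.69 CPM in WT-1 to WT-3, from 38, 17 and 33 read pairs. It was at 4.51, 3.48 and 3.38 CPM in CS16 and at 3.95, 4.16 and 4.22 CPM in CS19. All 6 libraries labelled *SNAI1*-KO lay above all 3 WT libraries, and WT-2 was the lowest of all. *CDH1* was higher by 1.38 ± 0.26 (log2, SE) in the libraries labelled *SNAI1*-KO (edgeR, adjusted p = 0.00058). The log2 difference was 1.35 ± 0.32 for CS16 (edgeR, adjusted p = 0.0095) and 1.47 ± 0.30 for CS19 (edgeR, adjusted p = 0.0047), comparisons that share the WT libraries. Without CS16-1, the highest library of that clone, the CS16 difference was 1.20 with an adjusted p of 0.0504 in edgeR's test.

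N-cadherin *CDH2* (ENSG00000170558.10, chr18:27932879-28177946, minus strand) had 34, 6 and 36 read pairs in WT, that is 1.68, 0.342 and 1.85 CPM. In CS16 it was at 32.8, 31.2 and 31.4 CPM, and in CS19 at 74.5, 85.3 and 88.2 CPM. The 3 groups did not overlap, and CS19 was the highest. *CDH2* was called higher in the libraries labelled *SNAI1*-KO, with a log2 fold change of 5.45 ± 0.63 (SE; edgeR, adjusted p = 1.51e-05). It was also called higher in CS16 (log2 4.64 ± 0.51; edgeR, adjusted p = 0.000235) and in CS19 (log2 6.02 ± 0.53; edgeR, adjusted p = 7.03e-05). Both members of the classical pair, epithelial and mesenchymal, were therefore more abundant in the libraries labelled *SNAI1*-KO than in WT.

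R-cadherin *CDH4* (ENSG00000179242.16, chr20:61252261-61940617, plus strand), known from retina and kidney development, was the type I cadherin that fell. WT-1 and WT-3 were at 49.5 and 49.0 CPM and WT-2 at 149 CPM, with 1003, 954 and 2612 read pairs. CS16 was at 0.588, 0.811 and 0.557 CPM and CS19 at 0.545, 0.520 and 0.491 CPM, from 12 to 17 read pairs each. No library labelled *SNAI1*-KO came near a WT library, and within WT the spread was set by WT-2. *CDH4* was called lower with a log2 fold change of -7.14 ± 0.38 (SE; edgeR, adjusted p = 2.17e-08), and this was -6.40 without WT-2. The values were -6.95 ± 0.61 for CS16 and -7.27 ± 0.60 for CS19, both called, and -6.24 and -6.54 without WT-2.

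P-cadherin *CDH3* (ENSG00000062038.15, chr16:68636189-68727468, plus strand), a cadherin of basal epithelial cells, was near the limit of detection. It had 12, 4 and 7 read pairs in WT, 9, 9 and 22 in CS16 and 12, 16 and 13 in CS19. The groups overlapped. The log2 difference of 0.51 ± 0.40 (SE) did not pass the test (edgeR, adjusted p = 0.285).

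Among the type II cadherins, OB-cadherin *CDH11* (ENSG00000140937.14, chr16:64943753-65126112, minus strand), named after osteoblasts and typical of mesenchymal cells, was the most abundant cadherin of the WT libraries. It had 6307, 5219 and 6162 read pairs in WT, that is 311, 298 and 316 CPM. It had 0, 1 and 0 read pairs in CS16 and 0, 0 and 1 in CS19. WT-2 did not stand apart for this gene, and every library labelled *SNAI1*-KO was at or under the limit of 3 counts. The level in WT was 21939 times that in the libraries labelled *SNAI1*-KO, with an exact 95% interval of 6072 to 181168 that covers counting error only. *CDH11* was called lower in CS16 and CS19 together (edgeR, adjusted p = 1.19e-10) and in each clone. An exon block of *CDH11* shares 254 bases with a gene on the same strand that had 23, 18 and 19 read pairs in WT and 0 in the other libraries.

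*CDH12* (ENSG00000154162.15, chr5:21750673-22853344, minus strand), known from brain, showed the reverse. WT had 0, 1 and 0 read pairs. CS16 was at 17.7, 15.9 and 18.1 CPM, from 362, 333 and 456 read pairs, and CS19 at 19.4, 22.0 and 21.6 CPM, from 427, 507 and 659. All 6 libraries labelled *SNAI1*-KO were therefore high within a narrow range, and the only WT read pair was in WT-2. The ratio to WT was 1106, with an exact 95% interval of 198 to 43707 from counting error alone, and *CDH12* was called higher (edgeR, adjusted p = 7.17e-09). The fitted log2 fold change of 9.69 rose to 11.76 without WT-2, the library that holds that read pair.

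*CDH10* (ENSG00000040731.10, chr5:24487100-24644978, minus strand), a further cadherin of the nervous system, was not counted once in WT. CS16 had 32, 31 and 33 read pairs and CS19 had 6, 19 and 15, that is 1.57, 1.48 and 1.31 CPM against 0.273, 0.824 and 0.491 CPM. CS16 lay above CS19 in every library. Against 3 counts in each WT library, *CDH10* was at least 6.29-fold higher over both clones, at least 9.22-fold higher in CS16 and at least 3.36-fold higher in CS19. It was called higher in both clones together (edgeR, adjusted p = 0.000719) and in CS16 (edgeR, adjusted p = 0.000377). In CS19 against WT it did not pass the filter on low counts and was not tested.

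The other cadherins were hardly counted. *CDH6* (ENSG00000113361.13, chr5:31193686-31329146), known from kidney, had 3, 2 and 0 read pairs in WT and 1 in total over the 6 other libraries, in CS19-2. *CDH8* (ENSG00000150394.14, chr16:61647242-62037035), known from brain, had 0 in WT, 4 in CS16-3, and 2 and 1 in 2 libraries of CS19. *CDH13* (ENSG00000140945.17, chr16:82626965-83800640), or T-cadherin, is held in the membrane by a lipid anchor and lacks the tail that binds catenins. It had 2 read pairs in WT, 1 in CS16 and 0 in CS19. *CDH6* and *CDH13* thus stayed at or under 3 counts in every library, *CDH8* exceeded them in 1 library, and none of these 3 was tested.

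Levels of different genes were compared as TPM, the transcript level per exon length scaled to a common total, from the counts and the merged exon lengths in the files. In WT the order was *CDH11* (74.7 ± 8.1 TPM, SD, n = 3), *CDH4* (36.4 ± 27.8, or a mean of 20.4 without WT-2), *CDH1* (0.796 ± 0.260), *CDH2* (0.469 ± 0.290) and *CDH3* (0.200 ± 0.106). *CDH11* and *CDH4* overlapped in their library values because of WT-2, and so did the neighbours *CDH1*, *CDH2* and *CDH3*, while *CDH4* and *CDH1* did not. In CS16 the order was *CDH2* (11.6 ± 1.8 TPM, SD, n = 3), *CDH12* (9.58 ± 1.75), *CDH1* (1.97 ± 0.57) and *CDH10* (1.24 ± 0.23), and only *CDH2* and *CDH12* overlapped among these neighbours. In CS19 it was *CDH2* (29.2 ± 3.1 TPM, SD, n = 3), *CDH12* (11.3 ± 1.4), *CDH1* (2.05 ± 0.19) and *CDH10* (0.446 ± 0.265), with no overlap between these 4. *CDH1* held rank 3 in all of the groups.

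Summed over the 10 genes, cadherin transcripts were less abundant in the libraries labelled *SNAI1*-KO. The sum was 106, 146 and 85.2 TPM in WT, 29.2, 20.7 and 24.9 TPM in CS16, and 40.4, 49.2 and 40.8 TPM in CS19. The 3 groups did not overlap. In WT, *CDH11* made up 76.5%, 52.8% and 77.1% of the sum and *CDH4* 21.5%, 46.6% and 21.1%. In CS16, *CDH2* made up 46.5% ± 1.1 (SD, n = 3), *CDH12* 38.3% ± 1.6 and *CDH1* 7.82% ± 1.04. In CS19, *CDH2* made up 67.2% ± 0.91 (SD, n = 3), *CDH12* 25.9% ± 0.53 and *CDH1* 4.74% ± 0.23. Type I cadherins gave 23.4%, 47.2% and 22.9% of the sum in WT, 55.2% to 57.6% in CS16 and 72.4% to 73.7% in CS19, so the type II share was highest in WT and lowest in CS19. In levels, type I cadherins summed to 24.9, 69.1 and 19.5 TPM in WT, 11.9 to 16.6 TPM in CS16 and 29.5 to 35.6 TPM in CS19, and type II cadherins to 65.7 to 81.2 TPM in WT, 8.78 to 12.6 TPM in CS16 and 10.7 to 13.6 TPM in CS19. The higher type I share of CS16 thus went with a lower type I level than in any WT library.

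**Figure D2:**
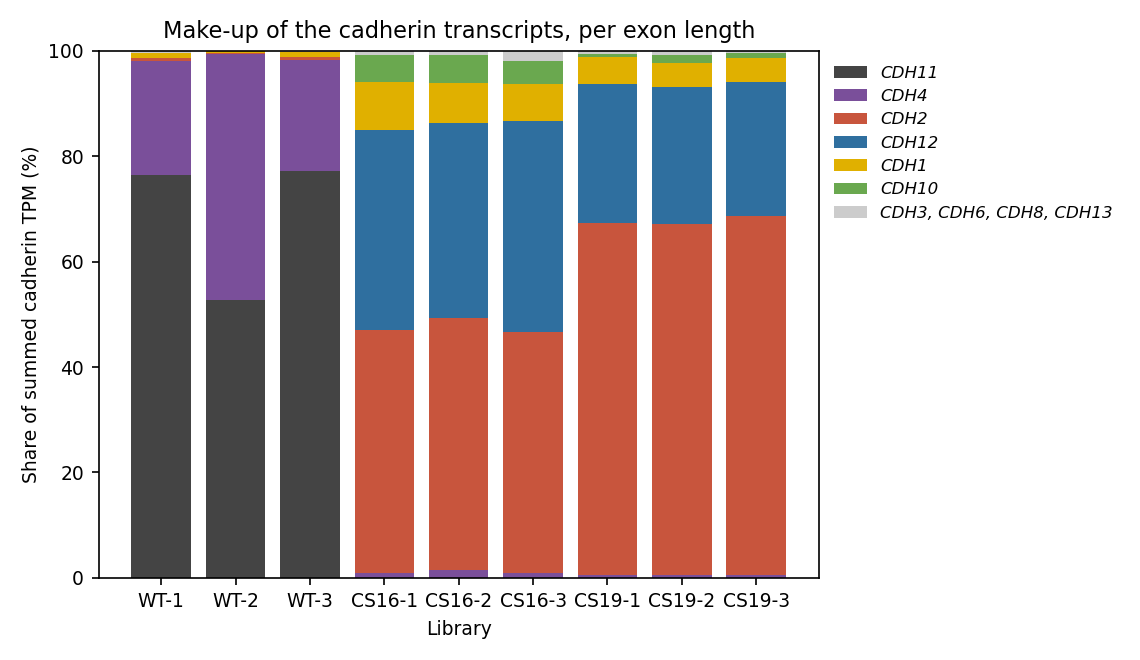
Share of each cadherin in the summed TPM of the 10 genes (percent, y axis) in each library (x axis). *CDH11* and *CDH4* filled the WT bars, and *CDH2* and *CDH12* filled most of the CS16 and CS19 bars.

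The ratio of *CDH2* to *CDH1* was 0.633, 0.25 and 0.772 in WT-1 to WT-3, so that E-cadherin was the more abundant of the pair in each WT library per exon length. In read pairs the order turned in WT-3, which had 33 of *CDH1* and 36 of *CDH2*. It was 5.15, 6.33 and 6.57 in CS16 and 13.3, 14.5 and 14.8 in CS19. The 3 groups did not overlap, and WT-2 was the lowest library. The mean ratio was 0.552 ± 0.271 (SD, n = 3) in WT, 6.02 ± 0.76 in CS16 and 14.2 ± 0.76 in CS19.

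**Figure D3:**
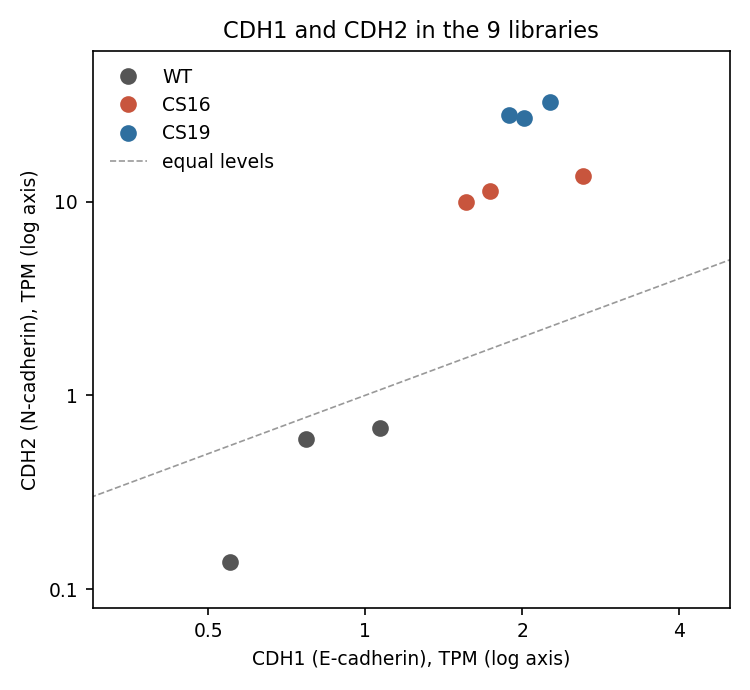
TPM of *CDH2* (y axis) against TPM of *CDH1* (x axis) in each library, both on log axes, with a dashed line where they are equal. WT libraries lay below the line, and all CS16 and CS19 libraries lay above it and to the right of every WT library.

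In single clones, CS16 against WT gave the same 5 calls, from 6 cadherins tested (27.1% of 18611 genes called). CS19 against WT gave 4 calls from 6 cadherins tested (26.4% of 18935 genes called), since *CDH10* was not tested there. At the adjusted p alone, 4 cadherins were higher and 2 lower in CS16, beside 27.0% and 28.6% of all genes (55.6% in either direction), and 3 were higher and 2 lower in CS19, beside 26.3% and 26.6% (52.9% in either direction). *CDH1* was the added one in both. The 2 comparisons share the WT libraries and are not independent.

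Between CS16 and CS19, none of 6 cadherins tested was called by edgeR or by DESeq2, beside 1.13% of 17538 genes called by edgeR (0.633% higher and 0.496% lower in CS16). At the adjusted p alone 3 of them passed, *CDH10* higher and *CDH2* and *CDH12* lower in CS16, beside 27.4% of all genes, and an unadjusted p under 0.05 gave the same 3. *CDH2* was lower in CS16 by 1.38 ± 0.08 on the log2 scale (SE; edgeR, adjusted p = 5.58e-08), with all 3 libraries of CS16 below those of CS19. *CDH10* was higher in CS16 by 1.44 ± 0.35 (SE; edgeR, adjusted p = 0.00742). *CDH12* differed by -0.29 ± 0.09 (SE; edgeR, adjusted p = 0.0326), and this passed no longer without CS16-1, CS16-2, CS19-2 or CS19-3, with adjusted p-values of 0.067 to 0.13. In a single fit of all 3 groups, where WT adds to the spread, the adjusted p was 0.0633 for *CDH2*, 0.131 for *CDH10* and 0.666 for *CDH12*. *CDH1* (log2 -0.13 ± 0.17), *CDH3* (0.11 ± 0.40) and *CDH4* (0.32 ± 0.34) did not pass.

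Several of the cadherins are neighbours on the chromosome, and the genes beside them are given with their log2 fold changes in the libraries labelled *SNAI1*-KO against WT. *CDH3* and *CDH1* lie 9823 bases apart on chromosome 16. Further along *CDH1* comes *TANGO6*, which was higher by 0.56 ± 0.13 (log2, SE; edgeR, adjusted p = 0.0026), and before *CDH3* comes *ZFP90* with 0.53 ± 0.13. *CDH8* and *CDH11* lie 2907 kb apart, and of this pair only *CDH11* was transcribed above the limit in WT. The nearest tested genes on the outer sides of them were the ribosomal pseudogene *RPS27AP16* (log2 0.27 ± 0.57) and *BEAN1* (0.10 ± 0.45), neither of which passed. *CDH13* lies between *MPHOSPH6* (1.16 ± 0.27) and *HSBP1* (1.32 ± 0.31), which passed the adjusted p although *CDH13* stayed at or under 3 counts in every library.

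On chromosome 5, *CDH12* and *CDH10* lie 1.63 Mb apart with *PRDM9*, a histone methyltransferase of meiosis, between them. *PRDM9* had a mean of 0 CPM in WT and 0.832 CPM in the libraries labelled *SNAI1*-KO, and was called higher (edgeR, adjusted p = 0.000188). *GUSBP1* on the other side of *CDH12* did not pass (log2 0.01 ± 0.20), and the long non-coding RNA *LINC02228* beyond *CDH10* was called lower (-3.54 ± 0.47). *CDH6*, further along this chromosome, sat between the long non-coding RNA *PURPL*, called higher from 0.0355 to 29.0 CPM, and *DROSHA* (-0.67 ± 0.26).

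On chromosome 18, the tested neighbours of *CDH2* were *CHST9*, a sulfotransferase gene, and the desmosomal cadherin *DSC3*, at distances of 748 and 2811 kb. Both had 0 CPM in all WT libraries and were called higher, *CHST9* with a mean of 3.13 CPM and *DSC3* with 115.5 CPM in the libraries labelled *SNAI1*-KO. Beside *CDH4* on chromosome 20, *MIR646HG* did not pass (log2 -0.18 ± 0.16), and *TAF4*, a subunit of the general transcription machinery, was lower by 1.06 without being called (log2 -1.06 ± 0.30; edgeR, adjusted p = 0.0087).

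The genes whose centred log2(CPM + 1) values over the 9 libraries came closest to those of *CDH1* were *NUP107-DT*, *SIX4* and *ZC3H12B*, with root mean square differences of 0.066, 0.086 and 0.093 among 19630 genes compared. Closest to *CDH2* were *SLC44A5*, *SLAIN1* and *HOXA13*, with differences of 0.119, 0.329 and 0.342. *SLC44A5* was at mean levels of 1.27, 27.3 and 80.7 CPM in WT, CS16 and CS19, close to the 1.29, 31.8 and 82.7 CPM of *CDH2*.

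Catenins and other linkers tie cadherin tails to actin. The counts of called genes in this and the following lists are to be read against the 12.6% of all genes called higher and 14.3% called lower in the same comparison. The lists were chosen with earlier results of these data known, so their counts and medians beside those of all genes are not an independent test. Of 12 such genes, 10 were tested, 2 were called higher and 0 lower, and at the adjusted p alone 2 were higher and 6 lower, beside 31.1% and 32.6% of all genes. The median log2 fold change was -1.08. The α-catenin *CTNNA1*, which binds actin, was at 787, 965 and 869 CPM in WT and at 178 to 267 CPM in the 6 other libraries, without overlap (log2 -1.96 ± 0.16; edgeR, adjusted p = 9.4e-07). β-catenin (*CTNNB1*) was at 819, 542 and 903 CPM in WT and 656 to 800 CPM in the others, and did not pass (log2 -0.09 ± 0.17; edgeR, adjusted p = 0.67), though without WT-2 it was lower by 0.28 with an adjusted p of 0.046. p120-catenin (*CTNND1*, log2 -1.53), plakoglobin (*JUP*, -1.75), vinculin (*VCL*, -1.67), the α-catenin relative *CTNNAL1* (-1.70) and afadin (*AFDN*, -0.62) passed the adjusted p as lower, *AFDN* not without WT-2 (-0.37; edgeR, adjusted p = 0.11). Close to the fold change of a call, *CTNNA1* reached it without WT-1, CS16-1 or CS16-3, and *JUP* reached it without WT-1 or WT-3 and was at -0.91 without WT-2.

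The p120 relative *ARVCF* (log2 2.32 ± 0.41, or 2.95 without WT-2) and the α-catenin *CTNNA3*, with 1 read pair in WT and 60 in the other libraries, were called higher. *PKP4* did not pass (-0.28 ± 0.13) except without WT-2 (-0.32; edgeR, adjusted p = 0.034), and *CTNNA2* and *CTNND2* were at or under 3 counts in every library. Of the 4 nectins, adhesion proteins that work beside cadherins, none was called. *NECTIN1* (-1.07 ± 0.38) and *NECTIN2* (-1.90 ± 0.24) passed the adjusted p as lower, *NECTIN3* (-0.30 ± 0.24) did not, and *NECTIN4* was too low to be tested. The log2 difference of *NECTIN1* was -0.10 without WT-2 and did not pass there, without CS16-2 (-1.01) or with the replicate number as a block (-0.83). That of *NECTIN3* was -0.61 without WT-2 and passed. *NECTIN2* was called without WT-1 or WT-3.

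Desmosomes are junctions with cadherins of their own, the desmocollins and desmogleins. Of 11 desmosomal genes, 6 were tested, 2 called higher and 1 lower (12.6% and 14.3% of all genes), with a median log2 fold change of 0.28. Desmocollin *DSC3* had 0 counts in WT and was at 83.7 to 152 CPM in the other libraries, at least 732-fold higher. *DSC2* was at 6.66, 4.28 and 7.08 CPM in WT and at 86.1 to 96.1 CPM in the others (log2 3.91 ± 0.19; edgeR, adjusted p = 1.3e-08). Plakophilin *PKP3*, which anchors desmosomal cadherins, was called lower, from 16.3, 49.9 and 18.3 CPM in WT to at most 0.0909 CPM. Desmoplakin (*DSP*) had the highest level summed over all 9 libraries and was lower by 0.68 ± 0.16 (log2, SE). In the clones *DSG2* was above *DSP*, with means of 282 against 223 CPM in CS16 and 303 against 199 CPM in CS19. *DSG1* had 0 counts in all 9 libraries.

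Of 13 further *CDH* genes, 4 were tested, and *CDH23*, a cadherin of the inner ear (log2 2.08 ± 0.43), and *CDH26* (3.84 ± 0.69) were called higher. *CDH26* was at 3.25 without WT-1 and 5.15 without WT-2. The median of the 4 was 2.96, or 1.84 with *CDH7*, which had 0 counts in WT, set at its bound. The call of *CDH23* was lost in a single fit of all 3 groups and without WT-1, WT-3, CS19-2 or CS19-3, where its fold change fell short, with a lowest log2 value of 1.85. *CDH7* was at 0.686, 1.05 and 1.11 CPM in CS16 and had 0 counts in the other 6 libraries. Over both clones it was called only with no filter on low counts or without CS19-3. *CDH24* had the highest level of the list summed over all 9 libraries, though in CS19 *CDH23* was above it (means of 11.2 and 8.05 CPM). *CDH24* was lower by 1.92 ± 0.23 (log2, SE) and was called only without WT-1 or WT-3. *CDH19* had 0 counts in all 9 libraries.

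**Figure D4:**
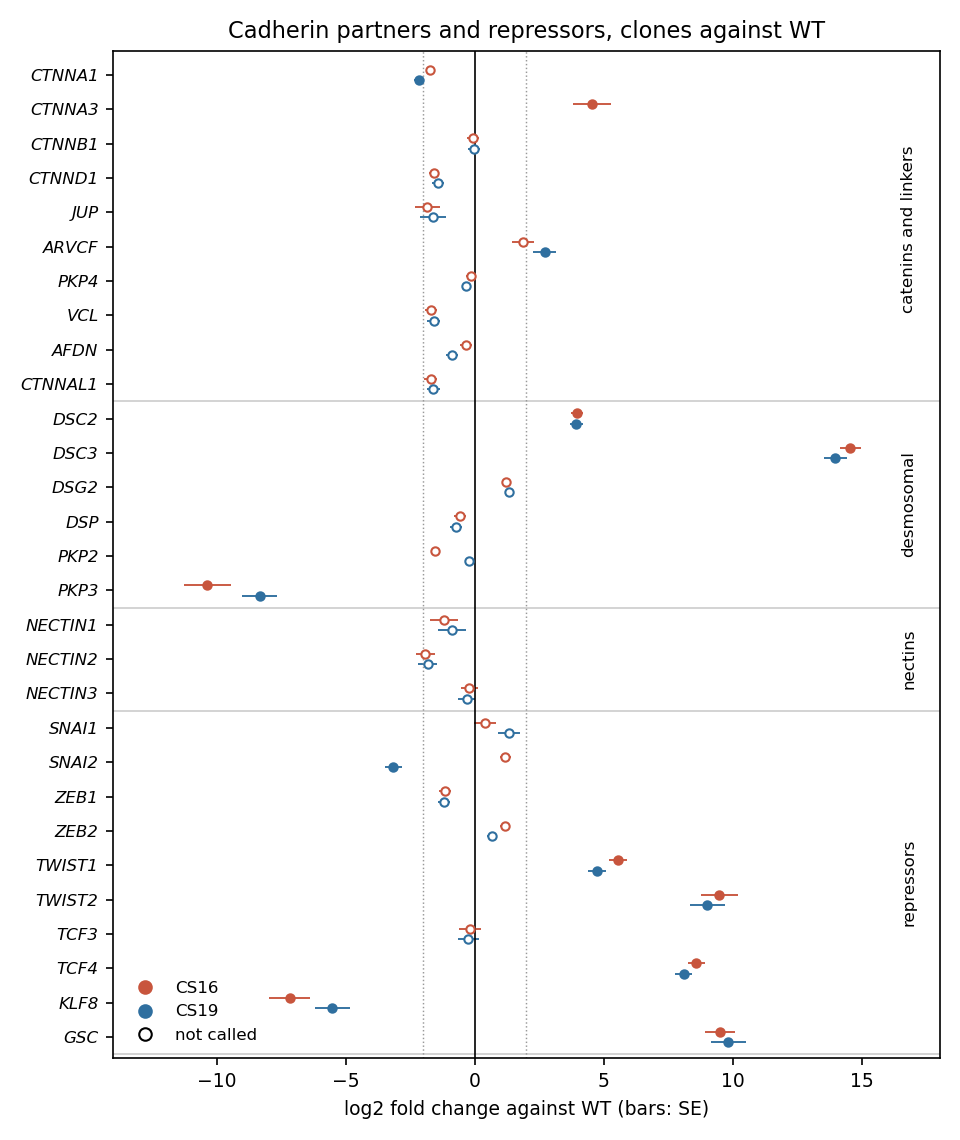
Log2 fold change against WT (x axis, bars are SE) of catenins and linkers, desmosomal genes, nectins and *CDH1* repressors (y axis) in CS16 (red) and CS19 (blue), with filled symbols for called genes and dotted lines at the fold change a call needed. Genes not tested in a clone have no symbol, and fold changes and SE of genes with 0 counts in WT, such as *DSC3*, depend on the prior count.

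All 11 genes known to repress *CDH1* were tested. Their median difference was 0.91 (log2), with 5 called higher and 1 lower, beside 12.6% and 14.3% of all genes. Of the basic helix-loop-helix factors, *TWIST1*, *TWIST2* and *TCF4* were called higher and *TCF3* was not. *TWIST1* was at 0.0986, 0.114 and 0.103 CPM in WT and at 2.47 to 5.64 CPM in the others, *TWIST2* went from 0 counts to 2.43 to 5.58 CPM, and *TCF4* from at most 0.296 CPM to 54.0 to 82.2 CPM. *GSC* rose from 0 counts (at least 29.6-fold) and *FOXC2* from 1 read pair to 88, whereas *KLF8* fell from 50 read pairs to 1. *ZEB1* was lower (log2 -1.22 ± 0.17) and *ZEB2* higher (0.91 ± 0.20) without being called, and *TCF3* did not pass (-0.25 ± 0.29), though without WT-2 it was higher by 0.42 with an adjusted p of 0.0070 in edgeR's test.

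*SNAI2*, the closest relative of *SNAI1*, differed between the clones. It was at 35.4, 25.0 and 39.3 CPM in WT, at 77.8, 72.8 and 70.7 CPM in CS16 and at 3.18, 5.07 and 2.62 CPM in CS19. Against WT, the log2 values were 1.18 ± 0.21 for CS16 and -3.16 ± 0.32 for CS19 (SE), and CS16 exceeded CS19 by 4.36 ± 0.16 (SE; edgeR, adjusted p = 8.9e-10). *CDH1* did not pass between the same clones.

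Of 15 genes of proteases that process or shed cadherins, 12 were tested, 1 called higher and 2 lower, with a median of -0.26. The proprotein convertase *PCSK6* was called higher (log2 6.60 ± 0.25). The sheddase *ADAM10* (-2.14 ± 0.17) and the membrane metalloprotease *MMP14* (-9.72 ± 0.31) were called lower, though *ADAM10* fell just short of the fold change of a call without WT-3. *MMP14* had the highest level summed over all 9 libraries, with a mean of 660 CPM in WT and 0.778 CPM in the libraries labelled *SNAI1*-KO. In the latter *APH1A* was the most abundant of the list, at 168 CPM. Of 9 genes of cadherin endocytosis, recycling and destruction, all were tested, *PIP5K1C* was called lower (-2.04 ± 0.46), and the median was -0.44. *PIP5K1C* was at 26.8, 158 and 27.7 CPM in WT, and without WT-2 its log2 fold change was -0.66 and not called. Its call was also lost without CS16-2, without CS19-3, with no filter on low counts (-1.90) and with the replicate number as a block (-1.64). *ARF6* was lower by 1.34 ± 0.15 (log2, SE) without being called. It had the highest level of that list summed over all 9 libraries, but in CS16 *RAB11A* was above it (means of 197 and 145 CPM).

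Markers of other cell types moved along with the cadherins, and their part in the differences was not tested. Of 11 mammary luminal markers, 8 were tested, 1 was called higher (*FOXA1*, 2 read pairs in WT and 1470 in the others) and 6 lower, led by *KRT19* and *KRT8*. Their summed level was 1545, 2222 and 1732 CPM in WT, 229 to 257 CPM in CS16 and 252 to 273 CPM in CS19, with *KRT8* the most abundant in WT and *XBP1*, a secretory pathway factor, in both clones. *GATA3* had the smallest fall of those called (log2 -2.89 ± 0.40) and was not called without WT-2 (-1.95). Of 8 basal and myoepithelial markers, 6 were tested, *MME* was called higher and 4 lower, with *TP63* and *OXTR* the lowest and *KRT17* the least changed of the 4. Their sum was 206, 307 and 194 CPM in WT and 18.9 to 25.4 CPM in the others, *MYLK* was the most abundant in each group, and *KRT5* had 0 counts in all 9 libraries.

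Of 13 markers of kidney epithelium and its precursors, 9 were tested, 5 called higher and 1 lower, where 12.6% and 14.3% of all genes were. *SALL1* (0 counts in WT) and *LRP2* rose most and *CITED1* least (log2 2.44 ± 0.54), and *PAX8* was the one that fell, from 898 read pairs in WT to 2. The sum was 59.6, 83.3 and 60.3 CPM in WT, 185.5 to 191 CPM in CS16 and 225 to 241 CPM in CS19, and *UMOD* had 0 counts in all 9 libraries. Without WT-2, *SIX2* was also called higher (2.16). Of 14 neural and neuroendocrine markers, 9 were tested, 5 called higher and 3 lower, against the same shares of all genes. The neurofilaments *NEFL* and *NEFM* (0 counts in WT) rose most, and *MAP2* and *ENO2* fell most. The sum was 78.5, 110.8 and 75.8 CPM in WT, 170 to 185 CPM in CS16 and 143 to 153 CPM in CS19, with *ENO2* the most abundant in WT and *NEFL* in both clones. Without WT-2, *CHGA* was also called higher (2.10).

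Of 9 fibroblast markers, 6 were tested and 2 were called in each direction. *PDGFRA* and *COL3A1* rose, and *COL1A2* (0 counts in all libraries labelled *SNAI1*-KO) and *PDGFRB* fell. The sum was 65.0, 127 and 58.5 CPM in WT, 64.0 to 68.0 CPM in CS16 and 12.9 to 15.8 CPM in CS19, with *COL1A2* the most abundant in WT and *COL3A1* in both clones. The medians of the 5 lists were -4.44 (luminal), -3.59 (basal), 2.44 (kidney), 3.47 (neural, or 2.11 with genes at 0 counts in WT set at their bound) and -0.21 (fibroblast), and that of the genes known to be high in MDA-MB-231 was -5.36. The 3 genes of 9p21 were all called higher, with a median of 13.26, or 8.46 at their bounds.

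The counting did not use strand, so reads of a gene and of a gene on the opposite strand over the same bases cannot be told apart. *CDH1* shares 347 exon bases with an opposite-strand gene that had 0 counts in all libraries, *CDH2* shares 302 with one that had at most 8, *CDH3* shares 537 with *CDH3-AS1* (3 counts in CS19-3, 0 in the others) and *CDH12* shares 397 with one that had at most 7. *CDH13* shares 2354 with *CDH13-AS2*, and *CDH6* and *CDH8* share 125 and 79 with opposite-strand genes, none of which had more than 2 counts in a library. On the same strand, *CDH6* shares a further 1109 exon bases with *DUX4L51*, which had 0 counts in all libraries. *CDH4* and *CDH10* share no exon bases with another gene.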

How the data were processed

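Total RNA of 9 samples labelled as MDA-MB-231, of the groups WT, CS16 and CS19, was depleted of ribosomal RNA and sequenced as stranded pairs. The authors trimmed reads (Trimmomatic 0.36), aligned them to GRCh38.p13 with STAR 2.7.2b and counted pairs per gene of gencode release 38 with featureCounts of Subread 2.0.0, mapping quality 30 or more, without the strand option. They deposited whole counts per gene, not normalized and not pooled. Total counts were 19527195 to 28627777 per library. The counts carry no molecular identifiers, so intervals cover counting error only, and nothing in the labels says that replicates were separate cultures, so p-values measure the spread between these libraries, which may be technical.

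Counts of all genes were matched to symbols (99.6% of 60708), filtered with filterByExpr, scaled by TMM and tested with edgeR 4.0.16's quasi-likelihood test in R 4.3.3, Benjamini-Hochberg adjusted over all genes tested. Comparisons were made of both clones together with WT, of each clone with WT and of CS16 with CS19. The fit of both clones together had no term for the clone. TPM used the exon lengths in the files. Tables and plots were made with Python 3.11.15, numpy 2.4.6, pandas 2.3.3, matplotlib 3.10.9 and scipy 1.17.1. The edgeR and DESeq2 steps were tested on simulated data. The alternatives were DESeq2 1.42.0, RLE and upper-quartile scaling, other filters and fold changes, 1 fit of all groups, the replicate number as a block, each library left out, and shares without exon length.

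Members and lists (catenins and linkers, desmosomal genes, nectins, further cadherins, *CDH1* repressors, proteases, turnover genes, markers of the line and of luminal, basal, kidney, neural and fibroblast cells) were chosen with earlier results of these data known. Named were all members, *SNAI1*, the genes of the line, catenin, nectin and repressor lists, and of each other list the called genes with the 2 highest and 2 lowest fold changes, the most abundant gene and the genes at 0 in all libraries. The 3 genes most like *CDH1* and *CDH2* and the nearest tested gene on each side of every cadherin were also named. *CDH7*, *SIX2*, *CHGA*, *XBP1*, *DSG2*, *APH1A* and *RAB11A* were named after their values were seen. Promoter sequences came from RefSeq. Some genes that this rule names are not reported here.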

Additional observations from a re-analysis of the deposited data

Results flagged for a closer look

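Between the clones, 3 cadherins differed in a test of the difference itself (CS16 against CS19, quasi-likelihood test of edgeR, adjusted p under 0.05), as did 27.4% of 17538 genes. The log2 difference was -1.38 for *CDH2*, 1.44 for *CDH10* and -0.29 for *CDH12*, with CS16 on that side of CS19 in 3 of 3 libraries each. In a single edgeR fit of all 3 groups none of them passed (adjusted p = 0.0633, 0.131 and 0.666), and *CDH12* also missed with DESeq2 (0.060), with the replicate block (0.107) and without CS16-1, CS16-2, CS19-2 or CS19-3. Among the 6 libraries labelled *SNAI1*-KO, CS16-2 lay apart for *CDH4*, at 0.811 CPM from 17 read pairs, where the other 5 had 12 to 15 read pairs. Chance sets about 1 in 20 such groups apart, and 7 cadherins were looked at in this way.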

How the results depend on the processing

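Against WT, the 5 calls in *SNAI1*-KO and in CS16 and the 4 in CS19 were kept under every scaling, filter, tool, fit and block tried and without any single library, and *CDH10* was added in CS19 where it could be tested. Leaving out each library in turn gave 3 cadherins higher and 2 lower each time in *SNAI1*-KO and in CS16, 2 to 3 higher and 2 lower in CS19, and 0 of either between the clones. Between CS16 and CS19, a log2 fold change of 1 gave 1 cadherin higher and 1 lower, beside 1.85% and 2.90% of all genes, and no fold limit gave 1 higher and 2 lower, beside 14.7% and 12.7%. There the small difference of *CDH12* also missed an adjusted p of 0.05 with DESeq2 (0.060) and without a filter (0.054), and *CDH3* turned from 0.11 to -0.33 without CS16-3 and to -0.06 without CS19-3, within a range of -0.33 to 0.31 over the libraries left out. Without division by exon length, *CDH2*, *CDH12*, *CDH1* and *CDH10* made up 57.2%, 31.0%, 6.80% and 2.62% of the cadherin counts in CS16, *CDH2*, *CDH12* and *CDH1* made up 75.5%, 19.2% and 3.77% in CS19, and the ratio of *CDH2* to *CDH1* was 8.50 in CS16 and 20.1 in CS19, whereas in WT-3 the order of the pair turned. With no filter on low counts the median log2 difference of all genes between both clones and WT rose by 0.11, and that of *CTNNB1* turned from -0.09 to 0.02, *SNAI1* passed as higher (1.01; edgeR, adjusted p = 0.046) and *AFDN* no longer passed (-0.51; edgeR, adjusted p = 0.058). Replicate numbers did not pair the libraries, since deviations of same-numbered libraries correlated between -0.206 and 0.190. With the number as a block, calls of cadherins were 3 higher and 2 lower in *SNAI1*-KO and in CS16, 2 higher and 2 lower in CS19 and 0 between the clones, and the adjusted p of *CDH12* between the clones was 0.107 in the block fit. Depth limits *CDH3*, *CDH6*, *CDH8*, *CDH10* and *CDH13*, which rested on 33 or fewer read pairs in every library.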
